A study of Mus musculus with 18 samples.

Results

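Cytosolic ribosomal proteins are the protein subunits of the ribosome that translates messages made in the nucleus. Their genes were taken here as those with a symbol of the form Rpl (large subunit) or Rps (small subunit) followed by a number, plus Rplp0, Rplp2 and Rpsa. Ribosomal S6 kinases, Rps19bp1 and pseudogenes were left out, and only probe sets annotated with a single gene symbol were used. This gave 49 genes of 18193 measured, 26 of the large and 23 of the small subunit, and 6 of them (Rpl22l1, Rpl39l, Rpl3l, Rpl7l1, Rps27l and Rps4l) are paralogs of another ribosomal protein gene. Levels were not used to choose the genes, which were taken by symbol with earlier results of these data known. The bright members described below were set apart by their mean level.

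Livers came from 18 male mice of the inbred strain C57BL/6J, aged 62 weeks, and the RNA of each was hybridised to its own Affymetrix Mouse Genome 430 2.0 array. There were 6 groups of 3 mice. The groups were a high-fat diet (60% fat) with 30% calorie restriction (HF+CR), a low-fat diet (10% fat) with 30% calorie restriction (LF+CR), the high-fat diet with a running wheel (HF+Ex), the low-fat diet with a running wheel (LF+Ex), the high-fat diet eaten freely (HF) and the low-fat diet eaten freely (LF). Treatment began at 5 weeks of age, every mouse was caged alone, and restricted mice were fed relative to the intake of the freely fed mice on the same diet. Running was voluntary, and neither the fed state nor the hour of sampling is stated.

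A ribosome is built from a fixed set of proteins and RNAs, and its protein subunits are needed in matching amounts. In mammals most of their messages begin with a C followed by a run of pyrimidines, the terminal oligopyrimidine (TOP) element. Through this element the nutrient-sensing kinase complex mTORC1 and the binding protein LARP1 set how strongly these messages are translated and how stable they are. In liver, feeding, insulin and amino acids act on this pathway, and the messages are also among the most abundant of the cell.

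The start of the gene is shown for 7 of the members that passed a test in a comparison of groups, because the pyrimidine run lies at that place. Each line holds 50 bases before and 25 bases from the annotated start in RefSeq's GRCm38.p6 assembly, 5′ to 3′ on the strand of the gene. Capitals mark a C followed by pyrimidines, at least 7 letters in all, that begins within 20 bases of the start.
Rpl22l1, chr3:28805458-28805532, plus strand: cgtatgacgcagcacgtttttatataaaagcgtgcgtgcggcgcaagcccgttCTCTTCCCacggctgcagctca
Rps26, chr10:128626482-128626556, minus strand: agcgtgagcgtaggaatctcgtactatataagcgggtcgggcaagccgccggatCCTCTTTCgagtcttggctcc
Rps18, chr17:33955641-33955715, minus strand: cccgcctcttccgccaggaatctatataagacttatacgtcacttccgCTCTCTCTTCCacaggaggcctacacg
Rps10, chr17:27635220-27635294, minus strand: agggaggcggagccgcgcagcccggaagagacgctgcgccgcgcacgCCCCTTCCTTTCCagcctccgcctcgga
Rpl13a, chr7:45128721-45128795, minus strand: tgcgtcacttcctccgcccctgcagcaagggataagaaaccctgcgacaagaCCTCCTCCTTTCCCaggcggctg
Rps24, chr14:24490628-24490702, plus strand: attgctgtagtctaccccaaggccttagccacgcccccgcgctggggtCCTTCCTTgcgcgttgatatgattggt
Rpsa, chr9:120127716-120127790, plus strand: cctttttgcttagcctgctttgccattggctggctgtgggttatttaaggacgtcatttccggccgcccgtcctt
The first 6 hold such a run and Rpsa holds none by this rule, though its line ends in pyrimidines just past the 20 bases. The rule rests on the annotated start, so a gene counted as without a run may still hold one farther off. Among members that passed in a comparison of groups but are not shown, Rpl27a holds a run of 20 letters, and Rpl6, Rps2 and Rps4x hold none. The share with a run among the lines shown is thus not that of all members that passed. The run was 8 letters long in Rpl22l1, Rps26 and Rps24, 11 in Rps18, 13 in Rps10 and 14 in Rpl13a.

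Of the 49 genes, 43 had a promoter entry of 250 bases before to 50 bases after the start, and the first listed was used where a gene had several. The pyrimidine run was present in 22 of them (51.2%), against 20.2% of the 27025 promoters of all genes. Runs that begin more than 20 bases from the annotated start are not in these counts. The letters CCGGAAG, the core bound by the ETS factor GABP, were present on either strand in 21 (48.8%), against 9.12% of all promoters. The letters AAGATGG, the core of the factor YY1, were present on either strand in 7 (16.3%), against 6.48%. The letters TATAA, the core of the TATA element, were present on either strand in 13 (30.2%), against 25.5%. The last 3 letters of CCGGAAG are the first 3 of AAGATGG, so that these matches can share bases. A match is a run of letters and was not tested as a binding site.

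Where a gene had several probe sets, the brightest stands for it, and intensities are linear as deposited. For 37 members (19 large and 18 small) this probe set was bright, with a mean over the 18 arrays above an intensity of 1000, from 1390 for Rpl37 to 7112 for Rps29. Another 7 members lay between 105.6 (Rps27) and 594.4 (Rpl7l1), and 5 (Rpl12, Rpl14, Rpl39, Rpl3l and Rps16) had means no higher than 97.57, the highest of the arrays' 40th percentiles. A gene was tested where it lay above its array's 40th percentile on at least 3 arrays, which held for 47 members, all but Rpl3l, the form of skeletal and heart muscle, and Rps16. For 8 of the 12 members that were not bright, another probe set was bright but carried the symbols of several genes, so that a dim value here does not mean a scarce message. Of the probe sets used, 12 end in _x_at and 2 in _s_at, suffixes of the array's maker for probes that may bind related transcripts. Ribosomal protein genes have many processed pseudogenes, and signal from these cannot be told apart from that of the gene.

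Some arrays stood apart from their groups. LF+CR replicate 2, HF replicate 1 and HF+Ex replicate 3 had the most extreme scores of the leading principal component, which held 26.6% of the variance. The pancreatic transcript Clps read 730 on HF+Ex replicate 1, 418 on LF+CR replicate 1, 320 on LF+Ex replicate 3 and 221 on LF replicate 1, against 45.9 to 53.1 on the other arrays. Hepatocyte markers were abundant throughout, with a summed intensity of 80860 to 90400 over the 10 measured markers. The ratio of 3′ to 5′ beta-actin control probe sets, a measure of RNA or labelling quality, lay between 1.55 and 2.2. Results that rest on these arrays are given with and without them.

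Most ribosomal protein genes had slightly lower intensities on the high-fat than on the low-fat diet, with 43 of 47 members below 0 among restricted mice, 41 among runners and 43 among freely fed mice. Few of them passed the test one by one, and 0 did among runners. Averaged over the 37 bright members, the log2 intensity was 11.86, 11.91 and 11.92 in HF+CR livers, against 11.98, 12.06 and 11.99 in LF+CR livers. It was 11.80, 11.78 and 11.86 in HF+Ex livers, against 11.89, 11.84 and 11.93 in LF+Ex livers. It was 11.81, 11.85 and 11.77 in HF livers, against 11.97, 11.98 and 11.93 in LF livers. The diets did not overlap among restricted and among freely fed mice, and they overlapped among runners through LF+Ex replicate 2.

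**Figure D1:**
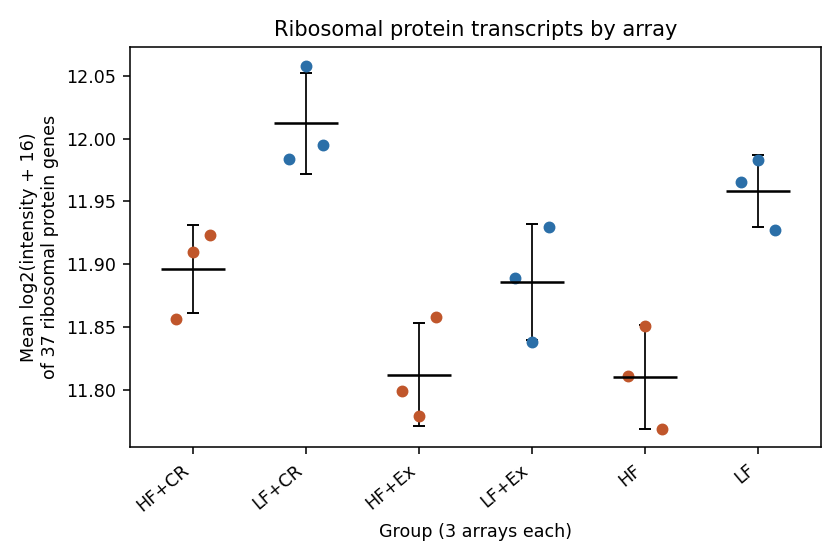
Mean log2(intensity + 16) of the 37 bright ribosomal protein genes on each array (points; high-fat orange, low-fat blue), by group, with the group mean (thick line) and SD (bar) of 3 arrays. The axis does not start at 0. HF+CR lies at 11.86 to 11.92 and LF+CR at 11.98 to 12.06, HF+Ex at 11.78 to 11.86 and LF+Ex at 11.84 to 11.93, HF at 11.77 to 11.85 and LF at 11.93 to 11.98.

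The 3 comparisons of diet share no arrays, so their values can be set beside each other. Of the 37 bright members, 32 (86.5%) had a log2 fold change below 0 in all 3, against 15.1% of all 14198 genes tested, and none lay above 0 in all 3. The exceptions were Rps19 and Rps29 (above 0 among runners), Rps27l (above 0 among freely fed mice), Rps2 (above 0 among runners) and Rpl22l1 (above 0 among restricted mice and among runners). Rps2 and Rps29 are structural proteins of the small subunit, and Rpl22l1 and Rps27l are paralogs of Rpl22 and Rps27.

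**Figure D2:**
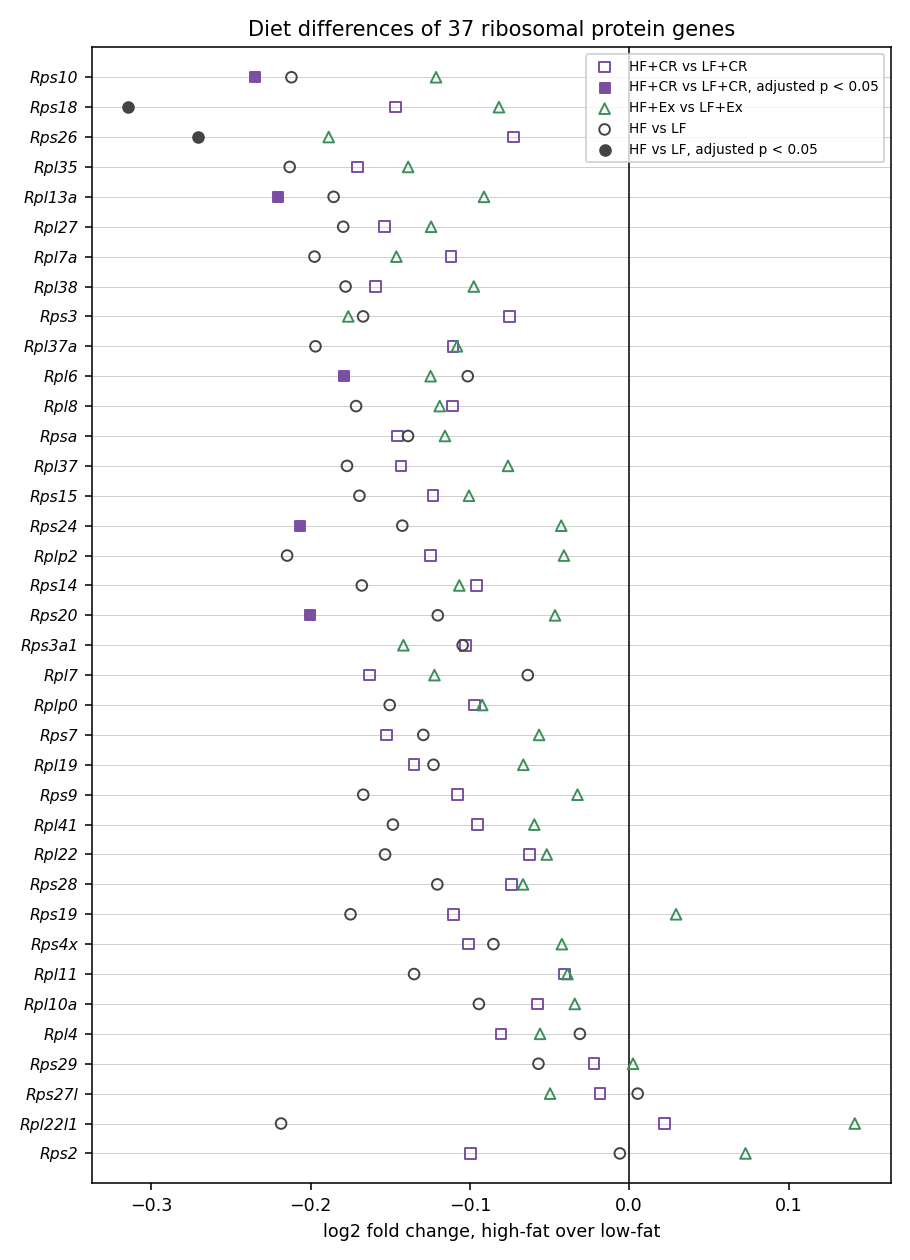
Log2 fold change of high-fat over low-fat livers for each of the 37 bright ribosomal protein genes among restricted mice (squares), runners (triangles) and freely fed mice (circles), ordered by the mean of the 3. Filled symbols mark an adjusted p under 0.05 (limma); 32 of the 37 genes lie left of 0 in all 3 comparisons.

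In HF against LF livers, 2 of 47 members fell and 0 rose (limma, adjusted p under 0.05 with Benjamini-Hochberg adjustment over all genes tested), where 0.902% of all genes passed. The median log2 fold change of the members was -0.14, against -0.026 for all genes, and 43 of 47 lay below 0, against 57.6% of all genes. At an unadjusted p under 0.05 there were 29 members, against 16.3% of all genes. The count was 0 without any one of the LF livers, HF replicate 1 or HF replicate 3, and also with centred arrays, with the beta-actin ratio as a covariate, in a fit of these 2 groups alone, or without the 3 or the 4 arrays that stood apart. With arrays weighted by their quality it was 15. The share of all genes that passed under these other settings is not given here, so this rise is not one of the members against other genes. The intensities of 33 members did not overlap between HF and LF livers, against 22.6% of all genes.

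Rps18, a protein of the head of the small subunit, had 3043, 3408 and 3037 in HF livers, against 3957, 4030 and 3810 in LF livers. All 3 HF livers lay below all 3 LF livers, and the log2 fold change was -0.31 (SE 0.068, limma adjusted p = 0.0409). Another bright probe set of Rps18 gave -0.31 and a further one 0.071, so that its probe sets did not all show the fall. Rps26, which lies where the messenger leaves the small subunit, had 2883, 3197 and 2920 in HF livers, against 3517, 3806 and 3538 in LF livers. The groups again did not overlap, and the log2 fold change was -0.27 (SE 0.054, limma adjusted p = 0.0288). Rps27, a zinc-finger protein of the small subunit measured by a dim probe set, read 86.32, 97.92 and 97.42 in HF livers, against 120.7, 116.5 and 117.4 in LF livers. Its log2 fold change was -0.29 and did not pass (limma adjusted p = 0.068).

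In HF+CR against LF+CR livers, 6 of 47 members fell and 0 rose, where 8.94% of all genes passed. The median log2 fold change was -0.10, against 0.031 for all genes, and 43 of 47 members lay below 0, against 41.4% of all genes. The 29 members without overlap between the groups compare with 27.1% of all genes. The share of members that passed is thus near that of all genes, whereas the direction is shared by most members. Subunits of oxidative phosphorylation went the same way, with 65 of 73 below 0, a median of -0.11, 15 falling and 0 rising. Markers of Kupffer cells, the macrophages of the liver, lay below 0 for 12 of 12, with a median of -0.41 and 0 passing, and their summed intensity was 6948 to 8239 in HF+CR livers, against 8530 to 14860 in LF+CR livers. The sum of B and plasma cell markers went the other way, with 1971 to 2275 in HF+CR livers, against 887.5 to 1397 in LF+CR livers, and 0 of these markers passed. Both sums are without overlap between the groups, and the part of these cells in the result was not tested.

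Rps10, a small subunit protein of the head of that subunit, had 3546, 3903 and 3874 in HF+CR livers, against 4368, 4606 and 4354 in LF+CR livers. The groups did not overlap, with a log2 fold change of -0.24 (SE 0.059, limma adjusted p = 0.0207), and its 4 other bright probe sets gave -0.21 to -0.35. Rpl13a, a large subunit protein also known in human cells for a role in silencing inflammatory messages, had 4604, 4887 and 4850 in HF+CR livers, against 5341, 5987 and 5408 in LF+CR livers. Its log2 fold change was -0.22 (SE 0.064, limma adjusted p = 0.043). Its other bright probe sets gave -0.12 and -0.24, and a dimmer one, with a mean of 681.9, gave 0.025. Rpl27a read 354, 298.1 and 293.6 in HF+CR livers, against 394.5, 430.2 and 423.2 in LF+CR livers, a log2 fold change of -0.39 (SE 0.10, limma adjusted p = 0.0275). In all 3 of these genes every HF+CR liver lay below every LF+CR liver.

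Rps24, a small subunit protein mutated in some patients with Diamond-Blackfan anaemia, had 3839, 3785 and 4089 in HF+CR livers, against 4333, 4787 and 4408 in LF+CR livers. Its log2 fold change was -0.21 (SE 0.056, limma adjusted p = 0.029). Rps20 had 3423, 3516 and 3651 in HF+CR livers, against 3961, 4200 and 4015 in LF+CR livers, with a log2 fold change of -0.20 (SE 0.054, limma adjusted p = 0.0294). Rpl6 averaged 3719 ± 46 in HF+CR livers and 4215 ± 202 in LF+CR livers (SD, n = 3 each), a log2 fold change of -0.18 (limma adjusted p = 0.0334). For Rps20 and Rps24 the probe sets without the suffix _x_at are dim, with means of 77.05 to 101.2, and gave -0.12 to 0.10. None of the 6 genes passed without LF+CR replicate 2, the array with the highest principal component score, and none passed in a fit of these 2 groups alone. The count of members was also 0 without the 4 arrays with pancreatic transcripts, and 1 without either HF+CR replicate 1 or HF+CR replicate 2.

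In HF+Ex against LF+Ex livers, 0 of 47 members passed with limma, where 1.72% of all genes passed, and 8 members had an unadjusted p under 0.05, against 15.8% of all genes. The median log2 fold change was -0.076, against -0.0081 for all genes, and 41 of 47 lay below 0, against 52.5% of all genes. The intensities of 12 members did not overlap between the groups, against 22.7% of all genes. Rps26 had 3028, 3054 and 2935 in HF+Ex livers, against 3432, 3379 and 3472 in LF+Ex livers, with no overlap and a log2 fold change of -0.19 (95% interval -0.30 to -0.073, limma adjusted p = 0.0889). Rpl27a (-0.18) and Rps4l (-0.18), whose intervals include 0, were the other 2 largest.

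Averaging the 3 comparisons of diet in the same model, which was added after the data had been seen, gave a log2 fold change below 0 for all 37 bright members. They lay between -0.19 (Rps10) and -0.011 (Rps2), with a median of -0.12, or 0.919-fold. In this average 24 of 47 members fell and 0 rose (51.1%), where 9.43% of all genes passed, and the median of all genes was -0.0013. The 2 shares are not like for like, because a difference of a given size passes more readily in members. In HF against LF livers the median SE was 0.057 for members and 0.085 for all genes. The fall was of like size in both subunits, with a median of -0.13 and 10 of 19 bright members passing in the large subunit and -0.12 and 12 of 18 in the small subunit. Rps10 (-0.19, SE 0.034, limma adjusted p = 0.0033), Rps18 (-0.18), Rps26 (-0.18, SE 0.031, limma adjusted p = 0.00292), Rpl35 (-0.17) and Rpl13a (-0.17) moved farthest among the bright members. Rpl27a (-0.26) and Rps27 (-0.16) also fell, from lower intensities.

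Of the members tied to particular roles, Rpsa, which also serves as a laminin receptor, fell by 0.13 on the log2 scale (SE 0.029, limma adjusted p = 0.0105). The stalk proteins Rplp0 (-0.11, limma adjusted p = 0.0694) and Rplp2 (-0.13, limma adjusted p = 0.0522), which recruit elongation factors, did not pass. Rps6, the target of the S6 kinases downstream of mTORC1, had 298 to 319.4 in HF+CR livers, against 317 to 318.5 in LF+CR livers, and a mean change of -0.042 over the diets (limma adjusted p = 0.474) on its moderately bright probe set. In HF against LF livers its 95% interval was -0.16 to 0.070, which includes the median of the bright members in that comparison, -0.15.

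Most other bright probe sets of these genes moved the same way in the mean diet difference. Of 32 further bright probe sets with a single member symbol, 31 lay below 0 in the mean diet difference, with a median of -0.14. The exception was a second bright probe set of the paralog Rps27l at 0.0036. A bright probe set of Rps18 with a mean of 3482 lay at -0.11 in that mean but did not fall in each pair. It gave -0.65 in HF+CR against LF+CR, 0.26 in HF+Ex against LF+Ex and 0.071 in HF against LF livers. Among dimmer probe sets, 1 of Rpl22 with a mean of 515.6 gave 0.25, while its 2 bright ones gave -0.089 and -0.15. Of 83 bright probe sets that carry a ribosomal protein symbol beside other symbols, and were used nowhere else, all 83 lay below 0, with a median of -0.12 and a range of -0.25 to -0.018. Many of these probe sets share sequence with each other, so that they are not independent.

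The count of single genes in the mean diet difference depended on the arrays, and the direction did not. Without the 4 arrays with pancreatic transcripts, 3 of 47 members passed, where 3.41% of all genes passed, and the median was -0.11 with 46 of 47 below 0. Without the 3 arrays with extreme principal component scores 42 of 47 lay below 0, with a median of -0.11. The beta-actin ratio was 1.55 to 1.79 in HF livers, against 1.98 to 2.03 in LF livers, and 1.55 to 2.1 on all high-fat arrays, against 1.68 to 2.2 on all low-fat arrays. With this ratio as a covariate 9 members fell, where 4.57% of all genes passed, and the median was -0.11. Its part in the result was otherwise not tested.

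Markers of stellate cells, which store vitamin A and make collagen, moved with diet as well. All 10 measured markers lay above 0 in the mean diet difference and 4 rose (Col3a1, Reln, Ecm1 and Lrat). Their summed intensity was 7211 to 11070 on the high-fat arrays, against 6322 to 8734 on the low-fat arrays. The diets did not overlap in HF (8276 to 9027) against LF livers (6520 to 7636). Nor did they in HF+Ex (7600 to 11070) against LF+Ex livers (6922 to 7023), while they overlapped among restricted mice. Of the 10 hepatocyte markers 8 lay below 0, with 1 passing upwards (Apob) and 3 downwards (Pck1, Tat and Cps1). Pancreatic acinar markers lay below 0 for 10 of 11, while Cela1 rose, with summed intensities of 1214 to 8622 on the high-fat arrays, against 1099 to 5719 on the low-fat arrays. This sum was 1223 to 1305 in HF livers, against 1342 to 4200 in LF livers, and it overlapped in the other pairs. Of 9 markers of sinusoidal endothelium, Lyve1 rose. Array intensities have no zero level, so that none of these markers can be called absent. In whole liver fewer cells of a type and less RNA per cell cannot be told apart, and the part of these cells in the ribosomal protein result was not tested.

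Calorie restriction was compared with free feeding on each diet. On the high-fat diet 2 members rose and 0 fell in HF+CR against HF livers, where 6.09% of all genes passed. The median log2 fold change of the members was 0.078, against 0.044 for all genes, and 37 of 47 lay above 0, against 60.9% of all genes. After centring of the arrays on their medians, the median of the members became 0.018 with 27 of 47 above 0. Kupffer cell markers lay below 0 for 11 of 12, with a median of -0.54 and 0 passing, and their summed intensity was 6948 to 8239 in HF+CR livers, against 8718 to 13090 in HF livers. The pancreatic acinar sum was 2143 to 2701 in HF+CR livers, against 1223 to 1305 in HF livers, and of these markers Cela1 rose. The endothelial markers Lyve1 and Fcgr2b fell. Neither sum overlaps between the groups, and the part of these cells in the result was not tested.

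Rpl22l1 moved farthest. Its product is a paralog of Rpl22, an RNA-binding protein of the large subunit, and in mouse cells Rpl22 represses the message of Rpl22l1. Rpl22l1 had 1725, 1787 and 1840 in HF+CR livers, against 1310, 1199 and 1201 in HF livers. The groups did not overlap, and it was 1.44-fold higher, with a log2 fold change of 0.52 (SE 0.10, limma adjusted p = 0.00716). It has a single probe set. On its brightest probe set, Rpl22 itself had a log2 fold change of 0.056 in HF+CR against HF livers (SE 0.051, limma adjusted p = 0.503). In the mean of both diets it was 0.011 (SE 0.036, limma adjusted p = 0.902). The other bright probe set of Rpl22 gave -0.0041 in HF+CR against HF livers and -0.011 in LF+CR against LF livers. A dimmer one, with a mean of 515.6, gave -0.13 and -0.43, and these differences of the further probe sets were not tested. Rps26 had 3350, 3411 and 3632 in HF+CR livers, against 2883, 3197 and 2920 in HF livers, a log2 fold change of 0.21 (SE 0.054, limma adjusted p = 0.0362). The call for Rps26 was lost with centred arrays (0.15, limma adjusted p = 0.144), under quantile normalization (limma adjusted p = 0.0552), with the beta-actin covariate, in a fit of the 2 groups alone and without any one of 5 of the 6 arrays compared (all but HF replicate 2). Rpl39l (0.33) and Rps4l (0.27) had the next largest differences, and both intervals include 0.

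On the low-fat diet 0 members passed with limma in LF+CR against LF livers, where 5.57% of all genes passed, and 6 members had an unadjusted p under 0.05, against 18.6% of all genes. The median was 0.040, against -0.0084 for all genes, and 32 of 47 lay above 0, against 47.0% of all genes. Rpl22l1 had 1561, 2175 and 1595 in LF+CR livers, against 1368, 1467 and 1488 in LF livers, with no overlap. Its log2 fold change was 0.28 (95% interval 0.070 to 0.50, limma adjusted p = 0.124), and LF+CR replicate 2, the array with the highest principal component score, held the highest value. Rpl12 (0.20, a dim probe set) and Rpsa (0.17, limma adjusted p = 0.0625) followed.

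In the mean of both diets, also added after the data had been seen, 2 of 47 members rose and 0 fell, where 4.78% of all genes passed. These were Rpl22l1 (0.40, SE 0.071, limma adjusted p = 0.00358) and Rpsa (0.17, SE 0.036, limma adjusted p = 0.0126). Rpsa had 2790, 2652 and 2764 in HF+CR livers, against 2460, 2449 and 2406 in HF livers. It had 2936, 3005 and 3144 in LF+CR livers, against 2574, 2706 and 2783 in LF livers. Every restricted liver lay above every freely fed liver on the same diet. With the arrays centred on their medians, or without the 4 arrays with pancreatic transcripts, 1 member passed. LF+CR livers held the highest group mean for 28 of the 37 bright members, and HF (17) or HF+Ex (15) livers the lowest for most.

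The interaction test, which asks whether the response to restriction differed between the diets, called 0 of 47 members (limma, where 5.74% of all genes passed; 1 member had an unadjusted p under 0.05, against 23.7% of all genes). The largest were Rpl39l (0.45, 95% interval -0.060 to 0.97), Rpl22l1 (0.24, -0.060 to 0.54) and Rps26 (0.20, 0.035 to 0.36, limma adjusted p = 0.137). The first 2 intervals include 0, and they also include differences as large as the responses themselves.

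**Figure D3:**
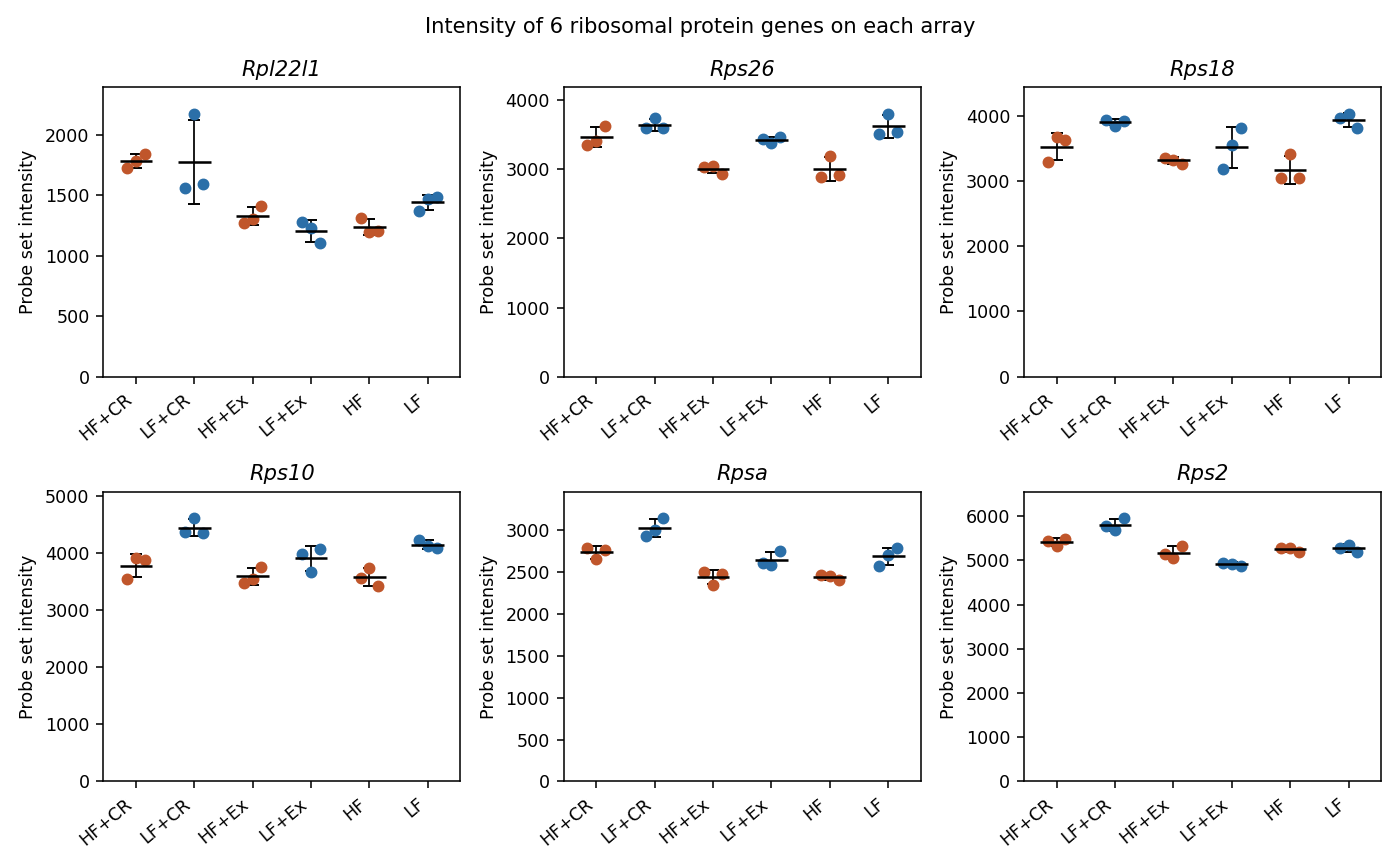
Probe set intensity (linear, axis from 0) of Rpl22l1, Rps26, Rps18, Rps10, Rpsa and Rps2 on each array (points; high-fat orange, low-fat blue), with the group mean (thick line) and SD (bar) of 3 arrays. Rpl22l1 lies at 1725 to 1840 in HF+CR and 1561 to 2175 in LF+CR livers, above the 1106 to 1488 of all other groups.

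Voluntary running was compared with free feeding without a wheel. In LF+Ex against LF livers 0 members passed with limma, where 0.00704% of all genes passed (1 gene). The median was -0.062, against -0.017 for all genes, 40 of 47 lay below 0, against 58.3% of all genes, and 7 members had an unadjusted p under 0.05, against 3.95% of all genes. The intensities of 14 members did not overlap between the groups, against 8.83% of all genes. Rpl22l1 had 1280, 1226 and 1106 in LF+Ex livers, against 1368, 1467 and 1488 in LF livers, which do not overlap, and its log2 fold change was -0.26 (95% interval -0.47 to -0.046, limma adjusted p = 1). Rps19 (-0.18), whose gene is the one most often mutated in Diamond-Blackfan anaemia, and Rps4l (0.23, interval -0.23 to 0.70) were the next largest in size.

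In HF+Ex against HF livers 0 members passed with limma, where 0% of all genes passed, and 0 members had an unadjusted p under 0.05, against 2.44% of all genes. The median was 0.0020, with 25 of 47 above 0, and the largest differences were 0.11 (Rpl14, a dim probe set), 0.10 (Rpl22l1) and -0.096 (Rpl39, also dim). In the mean of both diets 0 members passed, where 0% of all genes passed, and 35 of 37 bright members lay below 0 with a median of -0.035, against 59.1% of all genes and a median of -0.013. The interaction of running with diet gave 0 members, where 0.00704% of all genes passed, and 2 had an unadjusted p under 0.05, against 2.52% of all genes. Rpl22l1 (0.36, 95% interval 0.059 to 0.66), Rps18 (0.23) and Rps19 (0.20) were largest, each with a limma adjusted p of 1. Comparisons with the same freely fed livers share those arrays and are not independent of each other.

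Restriction and running were also set against each other on each diet. In LF+CR against LF+Ex livers 7 of 47 members rose and 0 fell, where 9.30% of all genes passed. The median was 0.11, against 0.014 for all genes, and 37 of 47 lay above 0, against 53.8% of all genes. Subunits of oxidative phosphorylation again went the same way, with 63 of 73 above 0, a median of 0.12, 11 rising and 0 falling. Rpl22l1 had 1561, 2175 and 1595 in LF+CR livers, against 1280, 1226 and 1106 in LF+Ex livers, and was 1.46-fold higher (log2 0.54, SE 0.10, limma adjusted p = 0.00287). Rps2, a small subunit protein at the entry of the messenger, had 5779, 5682 and 5956 in LF+CR livers, against 4951, 4926 and 4867 in LF+Ex livers. The groups are far apart relative to their spread, and the log2 fold change was 0.24 (SE 0.044, limma adjusted p = 0.00258).

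Rpl13a (0.22, SE 0.064, limma adjusted p = 0.0424), Rps24 (0.20, limma adjusted p = 0.0326), Rpsa (0.19, limma adjusted p = 0.0262), Rps20 (0.19, limma adjusted p = 0.0404) and Rps4x (0.16, limma adjusted p = 0.0486) also rose. Rps20 went the other way on its dim probe set without the _x_at suffix (-0.31, limma adjusted p = 0.0109). For Rpl13a the other bright probe sets gave 0.096 and 0.24, and the dimmer one gave 0.055. A fit of these 2 groups alone called 0 members, and leaving out single arrays called 2 (without LF+Ex replicate 1) to 7. The arrays with pancreatic transcripts include 1 of each group, and without the 4 such arrays 1 member passed, where 3.3% of all genes passed.

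In HF+CR against HF+Ex livers 1 member rose and 0 fell, where 2.72% of all genes passed. This was Rpl22l1, with 1725, 1787 and 1840 in HF+CR livers, against 1271, 1303 and 1411 in HF+Ex livers. It was 1.34-fold higher (log2 0.42, SE 0.10, limma adjusted p = 0.0365), and centring the arrays ended the call (limma adjusted p = 0.0921). Rpl39l (0.38) and Rps4l (0.24) were the next largest, with limma adjusted p values of 0.203 and 0.518. The median of the members was 0.073, against 0.049 for all genes, and 39 of 47 lay above 0, against 62.8% of all genes. With centred arrays the median of the members was 0.0089, and 21 of 47 lay below 0.

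Across the 6 groups together, the F test of limma called 17 of 47 members, all of them bright, where 14.3% of all genes passed. Rpl22l1 (limma adjusted p = 0.00252), Rps26 (limma adjusted p = 0.00384), Rpsa (limma adjusted p = 0.00438) and Rps10 (limma adjusted p = 0.00892) had the lowest values. Without LF+CR replicate 2 the count was 9, and without the 4 arrays with pancreatic transcripts 2, with the shares of all genes at these settings not given here. The bright members varied little between mice of a group, with a median within-group SD of 0.055 on the log2 scale, against 0.11 for all genes tested. Their group means spanned a median of 0.21 on that scale, and 0.56 at most.

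The bright members followed each other across the 18 arrays. The correlation of a member with the mean of the other bright members had a median of 0.87 and a highest value of 0.978, as a description over 18 arrays that share their scaling and groups. The median over all genes tested was 0.051. The lowest values belonged to Rps27l (0.161), Rpl22l1 (0.549) and Rps2 (0.567). Outside the family, the genes most like the mean of the bright members were 1600029O15Rik (0.884), Atp5mpl (0.87), Ssr4 (0.863), Sgce (0.862) and Kng1 (0.851).

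None of the 5 tested paralogs passed in the mean diet difference, where Rpl22l1 had -0.018, Rps27l -0.021, Rpl7l1 0.015, Rps4l 0.019 and Rpl39l 0.051 on the log2 scale. Rps27l, a stress-inducible paralog of Rps27 and target of p53, had 3449 to 3877 in HF+CR livers, against 3639 to 4006 in LF+CR livers, and 3844 to 4053 in HF livers, against 3662 to 4200 in LF livers. Rpl39l, best known from the testis, had 320.4, 249.4 and 248.4 in HF+CR livers, against 188, 208.8 and 227.6 in LF+CR livers. These do not overlap, yet the log2 fold change of 0.36 did not pass (SE 0.17, limma adjusted p = 0.214). Whether the paralogs differ from the other members was not tested.

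Other genes of translation and of mitochondria were measured beside the ribosomal proteins. In the mean diet difference, in which 9.43% of all genes passed, the mitochondrial ribosomal proteins, which form a separate ribosome, had a median of 0.020 over 76 genes, with 4 rising and 1 falling. Subunits of oxidative phosphorylation had a median of -0.076 over 73 genes, with 61 below 0, 15 falling and 0 rising. Of 16 genes of translation elongation and ribosome-associated factors 2 fell, Eef2 (-0.14), which moves the ribosome along the message, and Fau (-0.11), which encodes the small subunit protein eS30, with a median of -0.075. Of 34 initiation genes 4 fell and 0 rose, a share near that of all genes, among them Eif3h (-0.13) and Eif3m (-0.12), subunits of the scaffold eIF3, with a median of -0.041.

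**Figure D4:**
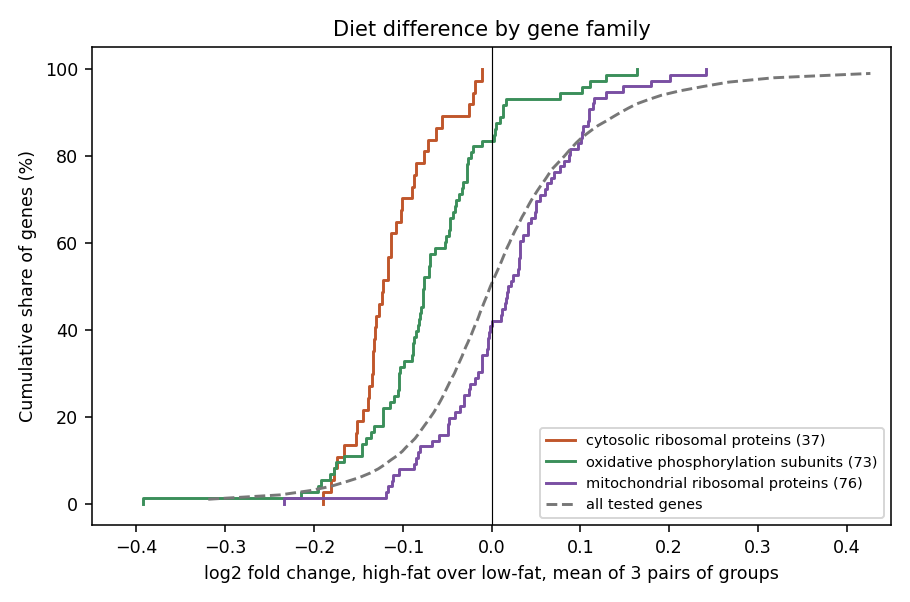
Cumulative share of genes (percent) against the log2 fold change of high-fat over low-fat livers, averaged over the 3 pairs of groups, for 37 bright cytosolic ribosomal proteins, 73 oxidative phosphorylation subunits, 76 mitochondrial ribosomal proteins and all tested genes (dashed). The cytosolic ribosomal proteins lie wholly left of 0, with a median of -0.12.

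Of 59 ribosome assembly genes tested 6 passed, again near the 9.43% of all genes. Heatr1 (0.37) and Utp20 (0.24), large scaffolds of the early small subunit precursor, rose, and Polr1d (-0.23), a shared subunit of RNA polymerases I and III, Imp3 (-0.22), Rpf2 (-0.16) and Sbds (-0.13) fell. The median was -0.028. Among 25 genes of mTORC1 and of transcription factors for translation genes, Sesn3 (0.24), a sestrin that restrains mTORC1, and Rheb (0.099), the small GTPase that switches it on, rose and 0 fell. Ncl, which encodes nucleolin of the nucleolus, fell by 0.55 on the log2 scale in HF+CR against LF+CR livers (limma adjusted p = 0.00228) and by 0.47 in HF+CR against HF livers (limma adjusted p = 0.0101). Eif5a, which helps the ribosome past difficult peptide bonds, rose by 0.25 in LF+CR against LF livers (limma adjusted p = 0.00736), and by 0.16 in the mean of both diets (limma adjusted p = 0.018). In that mean Eef2k, the kinase that slows elongation, rose by 0.21 (limma adjusted p = 0.0495), and Polr1d fell by 0.23 (limma adjusted p = 0.0125).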

How the data were processed

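Liver RNA was measured on 18 arrays. The authors deposited linear intensities per probe set, already scaled between arrays, with tools not given in the sources used here. Per the labels' protocols, Trizol was used for RNA extraction and the cRNA carried biotin. Intensities were used as log2(intensity + 16). Of 45101 probe sets 64 controls were left out, 34945 carried 1 symbol, and the brightest over all arrays stood for each of 18193 genes. The dim filter left 14198 genes. The array number, 3 per group, and the signal over background limit the precision.

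The 6 group means were estimated in limma 3.58.1 (R 4.3.3) from all 18 arrays at once, with 12 residual degrees of freedom and 3.61 from the prior. The procedure was tested on simulated data. SE is the moderated standard error of a log2 fold change, intervals are 95%, and Benjamini-Hochberg adjustment ran over all genes tested. The 11 comparisons and the F test do not pair arrays. The members and the lists were chosen with earlier results of these data known. The 3 averages over diets, and fits without certain arrays or with a clock or beta-actin covariate, were added after the data had been seen. The genes named per comparison are the up to 5 largest rises and falls among members that passed, the 3 largest changes where fewer than 3 passed, and a fixed set of paralogs, stalk proteins, Rpsa and Rps6. Rps20, Rpl6, Rps4x and, in the averages, Rpl13a and Rps27 were named after their values were seen. Other settings were quantile normalization, centring, other offsets, filters, probe set rules and variance models, single pairs of groups, a replicate block and single arrays left out.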

Additional observations from a re-analysis of the deposited data

Results flagged for a closer look

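The diet difference of Rps2 ran in opposite directions under restriction and running. Rps2 had 5430, 5329 and 5493 in HF+CR livers, against 5779, 5682 and 5956 in LF+CR livers, a log2 fold change of -0.0995. It had 5143, 5044 and 5329 in HF+Ex livers, against 4951, 4926 and 4867 in LF+Ex livers, a log2 fold change of 0.073. Within each pair the groups did not overlap, and neither difference passed (limma adjusted p = 0.177 and 0.446). The difference between these 2 diet effects was not tested.

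The difference with running of Rps27, measured by a dim probe set, ran in opposite directions on the diets. It read 115, 110.2 and 105.1 in LF+Ex livers, against 120.7, 116.5 and 117.4 in LF livers, a log2 fold change of -0.0905. It read 103.3, 100.9 and 99.2 in HF+Ex livers, against 86.32, 97.92 and 97.42 in HF livers, a log2 fold change of 0.0938. The interaction was 0.18 (SE 0.10, limma adjusted p = 1).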

How the results depend on the processing

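The median log2 fold change of the members kept its sign under all 34 or 35 other settings in 12 of 14 comparisons, including -0.12 to -0.092 for the mean diet difference. It changed sign in HF+Ex against HF livers (-0.021 to 0.020) and, by centring (-0.035), in the interaction of restriction with diet. The standard error of a single difference was about 0.057 on the log2 scale, the median for a member, and differences well above it could fail to pass. In HF against LF livers, Rpl22 at -0.15 (SE 0.051) had a limma adjusted p of 0.15. The causes of the moves below were not tested.

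Counts of members that passed moved as follows. They are given here and below without the share of all genes at the same setting, so that they do not compare the members with other genes. Centring gave 0 in place of 2 in HF against LF, 1 for 2 in HF+CR against HF, 2 for 7 in LF+CR against LF+Ex, 0 for 1 in HF+CR against HF+Ex, 14 for 24 in the mean diet difference, 1 for 2 in mean restriction and 4 for 17 in the F test. Quantile normalization gave 1 in HF+CR against HF. An offset of 64 and no filter each gave 2 in LF+CR against LF and 2 in HF+CR against HF+Ex. The mean of a gene's probe sets gave 1 in HF against LF, 1 in LF+CR against LF, 2 in HF+CR against HF+Ex and -0.0121 for Rps20 in LF+CR against LF+Ex. Without _x_at and _s_at probe sets, there was 1 in HF against LF and 4 in LF+CR against LF+Ex, where Rps20 turned to -0.3056, and Rps24 turned to 0.0036 in the mean diet difference; both rest there on dim probe sets. Without paralogs there was 1 in HF+CR against HF, 0 in HF+CR against HF+Ex and 1 in mean restriction. A trended variance gave 2 in HF+CR against HF+Ex. Array weights gave 15 in HF against LF, 2 in HF+Ex against LF+Ex, 1 in LF+CR against LF, 7 in HF+CR against HF, 2 in HF+CR against HF+Ex, 1 in the restriction interaction, 9 in mean restriction and 31 in the F test.

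The labels state no pairing of mice by replicate number. Correlations of same-numbered arrays were -0.412 to 0.337 over 45 pairs, with a mean of -0.048, against 0.025 for arrays of other numbers. These are not correlations of whole array profiles, which reached 0.9953 for HF replicate 1 with HF+Ex replicate 3. Whether the numbers mark a shared handling was not tested. With the replicate numbers as a block, there was 1 in HF against LF, 3 in LF+CR against LF+Ex, 0 in HF+CR against HF+Ex and 9 in the F test. Fits of the compared groups alone gave 0 in HF against LF, 0 in HF+CR against LF+CR, 1 in HF+CR against HF and 0 in LF+CR against LF+Ex.

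Without the 3 arrays with extreme principal component scores there were 0 in HF against LF, 1 in HF+CR against LF+CR, 1 in HF+CR against HF, 2 in LF+CR against LF+Ex, 1 in the restriction interaction and 5 in the F test. Without the 4 arrays with pancreatic transcripts there were 0 in HF against LF, 0 in HF+CR against LF+CR, 1 in HF+CR against HF, 1 in LF+CR against LF+Ex, 0 in HF+CR against HF+Ex, 3 in the mean diet difference, 1 in mean restriction and 2 in the F test. The clock covariate gave 2 in HF+CR against HF+Ex. The beta-actin covariate gave 0 in HF against LF, 1 in HF+CR against HF, 2 in LF+CR against LF+Ex, 9 in the mean diet difference and 11 in the F test.

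Leaving out single arrays gave 0 to 3 in HF against LF (0 without any one LF array, HF replicate 1 or HF replicate 3), 0 to 6 in HF+CR against LF+CR, 1 to 2 in HF+CR against HF, 2 to 7 in LF+CR against LF+Ex, 0 to 1 in HF+CR against HF+Ex, 0 to 1 in the restriction interaction, 16 to 25 in the mean diet difference and 9 to 18 in the F test. Centring moved the share of rises among all calls by over 10 points in HF+CR against LF+CR (52.9% in place of 62.9%), HF+CR against HF (36.2% for 58.1%), HF+CR against HF+Ex (26.9% for 51.8%), the restriction interaction (45.1% for 58.3%) and mean restriction (30.4% for 43.4%).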
